A study of Mus musculus with 12 samples.

Results

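The genes described here are 9 genes of prohormone processing, the steps by which the pituitary gland turns large precursor proteins into secreted peptide hormones. They were chosen by name, as Qpct, Qpctl, Pcsk1, Pcsk2, Pcsk1n, Scg5, Cpe, Cpd and Pam, and every array probe annotated to them was kept when it was detected on enough arrays. Qpct was put on the list because its signal was already known to differ between the groups on these arrays, so its own change is given as a description and supports nothing here. Of the 9 genes, 7 had a named probe among the 45281 probes of the array. They shared 10 probes, of which 6 probes for 5 genes (Qpct, Cpe, Scg5, Pcsk1n and Pam) passed the detection filter, beside 18626 probes for 10802 named genes in the whole series. Pcsk2 and Cpd had no named probe and were not analysed here.

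RNA came from whole pituitaries, with anterior, intermediate and posterior lobes together, of adult C57BL/6J female mice, read on Illumina MouseWG-6 v2.0 arrays, 1 animal to an array. Pregnant females, 8 in number, were wild-type animals mated with males of the strain and taken in late gestation (e15.5). Non-pregnant females were 4 wild-type virgins. All females were 8 weeks old when allocated and came from 4 litters, and single females could not be matched to their litters. In a whole gland, fewer cells of a type and less RNA per cell cannot be told apart.

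Peptide hormones are made as precursors that enter the secretory pathway and are cut inside maturing granules. The proprotein convertases PC1/3 (Pcsk1) and PC2 (Pcsk2) cut after pairs of basic residues, carboxypeptidases E and D (Cpe, Cpd) remove those residues from the new end, and PAM turns a terminal glycine into an amide. Glutaminyl cyclase (Qpct), and its Golgi relative (Qpctl), close an amino-terminal glutamine into a pyroglutamate ring, which shields peptides such as TRH and GnRH from breakdown. Pcsk1n and Scg5 are not enzymes: Pcsk1n encodes proSAAS, an inhibitor of PC1/3, and Scg5 encodes 7B2, a chaperone that PC2 needs to mature.

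Across the arrays, between 17217 and 18392 probes were detected in pregnant females, and between 17789 and 18572 in non-pregnant females. Raw signal had a median of 151.1 to 179.6 intensity units in pregnant females, and of 144.8 to 147.6 in non-pregnant females. Non-pregnant replicate 4 stood apart from its group on the first principal component (24.5% of the variance), at 0.2534 against -32.76 to -21.31 for the other 3 non-pregnant arrays. The tissue label held: markers of all anterior lobe hormone cells were measured, with Prl, Gh, Pomc and Cga at about 15 log2 units in both groups (Prl 15.31 ± 0.17 in pregnant and 15.47 ± 0.04 in non-pregnant females, SD, n = 8 and 4). Posterior lobe markers were sparser, with 2 of 4 measured. Over all tested genes, the median log2 change was -0.01 (pregnant minus non-pregnant), and 332 genes (3.07%) were called (adjusted p under 0.05, with a minimum fold), 169 of them lower (1.56%) and 163 higher (1.51%) in pregnant females. These counts rest on single arrays to a large extent: they were 61 lower and 75 higher without non-pregnant replicate 1, 53 and 59 without non-pregnant replicate 3, 475 and 400 without non-pregnant replicate 4, and 106 and 114 without pregnant replicate 7.

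Of the 4 measured processing genes other than Qpct, 0 were called in the limma fit, and 1 (Cpe) had an unadjusted p under 0.05. Over the whole series, 3159 of 18626 tested probes had an unadjusted p under 0.05. Qpct met the limits of a call, lower in pregnant females, but it was chosen for this change, so nothing is read from it against the 3.07% called across all genes. The 4 genes other than Qpct had log2 changes of -0.42 (Cpe), -0.11 (Scg5), 0.04 (Pcsk1n) and 0.11 (Pam), beside a median of -0.01 over all tested genes. The groups did not overlap in Qpct, which its choice had fixed, and in Cpe. Groups did not overlap in 3.19% of all named genes (1.55% lower in pregnant females and 1.65% higher). Signals of different probes depend on the probe as well as on the RNA, so levels were compared only within a probe.

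Qpct signal was lower in the glands of pregnant females, on every array. Its log2 intensity, the background-corrected and quantile-normalised signal on a log2 scale, ran from 8.85 through a median of 9.06 to 9.39 on the 8 pregnant arrays, against 9.88, 10.20, 10.09 and 10.02 on the 4 non-pregnant arrays. Every pregnant array lay below every non-pregnant array, and the nearest values of the groups, those of pregnant replicate 2 and non-pregnant replicate 1, were farther apart than the SD of either group. The means were 9.07 ± 0.16 in pregnant and 10.05 ± 0.13 in non-pregnant females (SD, n = 8 and 4). The log2 change was -0.97 ± 0.11 (SE, 95% interval -1.20 to -0.75), a 1.96-fold lower signal, or 50.9% of the non-pregnant level. This direction is the opposite of the one given in the discussion of the study. It was also present before any correction, since raw intensities spanned 571 to 770 in pregnant and 957 to 1230 in non-pregnant females, and the processed intensities that the authors deposited spanned 568 to 776 in pregnant and 1040 to 1268 in non-pregnant females. With each array left out in turn the log2 change stayed between -1.03 and -0.92.

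The gene has a second probe on the array, which was not above background on any of the 12 arrays (detection p between 0.223 and 0.972), so the change rests on a single probe. Qpctl, the Golgi relative, was not above background on any array either, with detection p between 0.353 and 0.973. Its raw signal of 117 to 159 in pregnant and 112 to 132 in non-pregnant females was that of unexpressed probes, and these arrays give no comparison of the cyclases.

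**Figure D1:**
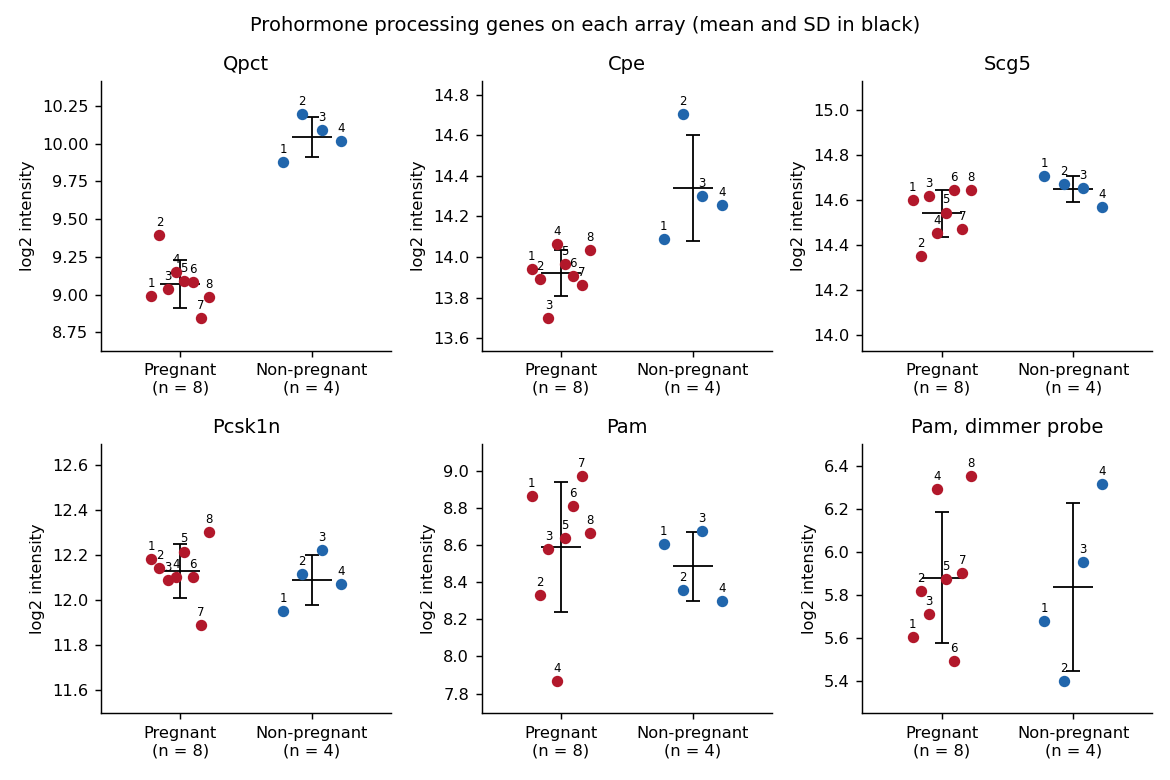
Log2 intensity (vertical axis) of the 5 measured processing genes, and of the dimmer Pam probe, on each array, with pregnant females in red and non-pregnant females in blue. Small numbers are replicate numbers and black bars are the mean and SD. Qpct (8.85 to 9.39 in pregnant against 9.88 to 10.20 in non-pregnant females) and Cpe have separate groups, and the other panels overlap.

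Cpe, the main carboxypeptidase of secretory granules, was the other gene whose groups were separate, by a narrow margin. Its log2 intensity ran from 13.70 through a median of 13.92 to 14.06 in pregnant females, against 14.09, 14.71, 14.30 and 14.26 in non-pregnant females. Non-pregnant replicate 2 was the highest array and non-pregnant replicate 1 lay just above the highest pregnant array. Means were 13.92 ± 0.11 in pregnant and 14.34 ± 0.26 in non-pregnant females (SD, n = 8 and 4). The log2 change was -0.42 ± 0.11 (SE, 95% interval -0.66 to -0.18), or 74.8% of the non-pregnant signal, and it missed the threshold in the limma fit over all probes (adjusted p = 0.0658). Under 6 of 9 other ways of processing the same arrays Cpe did pass, with adjusted p between 0.0140 and 0.0441. All 6 used quantile-normalised values, and 167 to 646 genes of the whole series were called lower under them, against 169 as reported. With median centring in place of quantile normalisation the log2 change was -0.32 (adjusted p = 0.154). Cpe did not pass without the detection filter (adjusted p = 0.0809) or with the replicate number as a block (adjusted p = 0.270) either. Without non-pregnant replicate 2 the log2 change was -0.30 (adjusted p = 0.173). The raw intensities overlapped, at 14371 to 18587 in pregnant and 15878 to 21668 in non-pregnant females. The probe is bright, at 35.7% of the brightest signal on the array on average, and whether signal there is still proportional to RNA was not tested.

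**Figure D2:**
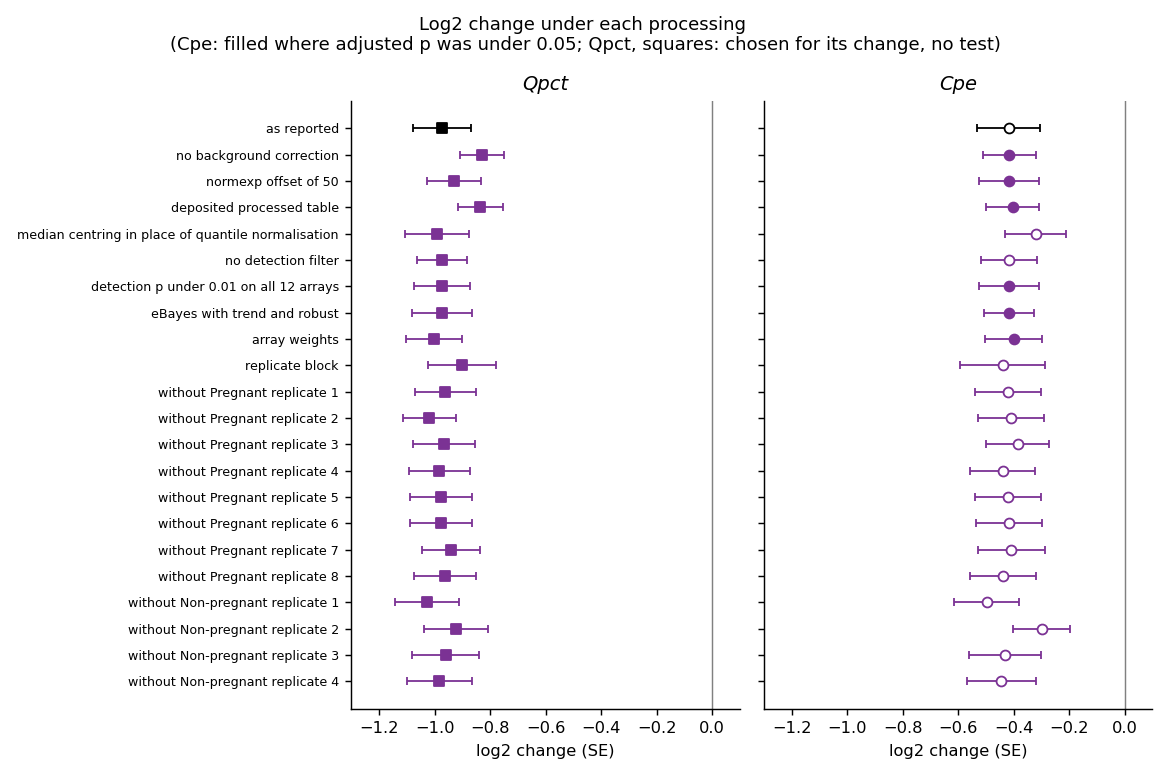
Log2 change (pregnant minus non-pregnant, horizontal axis, bars are the SE) of Qpct (left) and Cpe (right) as reported, under 9 other ways of processing and without each array. Qpct stays between -1.03 and -0.83 throughout, and Cpe between -0.50 and -0.30, with filled circles where Cpe passed an adjusted p of 0.05.

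The remaining measured genes did not pass the test. Scg5, which encodes the PC2 chaperone 7B2, had a log2 intensity of 14.35 to 14.64 in pregnant females (median 14.57), against 14.71, 14.67, 14.65 and 14.57 in non-pregnant females. The groups overlapped, and pregnant replicates 2, 4 and 7 were the lowest arrays. Its log2 change was -0.11 ± 0.09 (SE, 95% interval -0.29 to 0.08, adjusted p = 0.569 in limma). With median centring in place of quantile normalisation it was -0.003 (adjusted p = 0.993). This probe too was bright, at 50.9% of the brightest signal.

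Pcsk1n, which encodes the PC1/3 inhibitor proSAAS, ran from 11.89 through a median of 12.12 to 12.30 in pregnant females, against 11.95, 12.11, 12.22 and 12.07 in non-pregnant females. The groups covered the same range, with a log2 change of 0.04 ± 0.09 (SE, 95% interval -0.16 to 0.24, adjusted p = 0.879 in limma).

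Pam, the amidating enzyme, was read by 2 probes that passed the filter. The brighter ran from 7.87 through a median of 8.65 to 8.97 in pregnant females, against 8.60, 8.36, 8.68 and 8.30 in non-pregnant females, and pregnant replicate 4 was the lowest of all arrays. Its log2 change was 0.11 ± 0.17 (SE, 95% interval -0.26 to 0.47, adjusted p = 0.808 in limma). The dimmer Pam probe gave 0.04 ± 0.18 (SE, adjusted p = 0.931). That probe lay just inside the detection filter, with detection on 4 pregnant and 2 non-pregnant arrays.

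The convertase gene Pcsk1 did not pass the filter. It has 2 probes, of which 1 was not above background on any array and the other was above it on a single array, pregnant replicate 4 (raw intensity 181.1, detection p 0.0406). On the remaining 11 arrays this second probe read between 131.5 and 171.1. PC1/3 is known to cut the Pomc precursor in corticotrophs, and Pomc was at 15.00 ± 0.15 log2 units in pregnant and 15.03 ± 0.03 in non-pregnant females (SD, n = 8 and 4). A low probe signal does not show that the convertase gene was silent. The planned comparisons of PC1/3 with PC2, of each convertase with its inhibitor or chaperone and of Cpd with Cpe gave no value, since Pcsk1, Pcsk2 and Cpd were not measured.

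GnRH, a pyroglutamate peptide, acts on gonadotrophs, the cells that make LH and FSH. Gnrh1 had no named probe, and a link between Qpct and these cells was not tested. Their markers included a gene called lower in pregnant females, the direction of Qpct. Of 7 gonadotroph markers, 6 were measured (Foxl2 was not), and 1 was called, Lhb, the beta chain of LH, lower in pregnant females. Lhb averaged 10.92 ± 0.18 in pregnant and 11.83 ± 0.12 in non-pregnant females (SD, n = 8 and 4), a log2 change of -0.91 ± 0.11 (SE, adjusted p = 0.000513 in limma). The other 5 measured gonadotroph markers were not called. Fshb, the beta chain of FSH, ran from 9.65 to 11.20 in pregnant females, against 9.04, 10.64, 9.41 and 6.86 in non-pregnant females, and non-pregnant replicate 4 was the lowest array. Its log2 change was 1.61 ± 0.48 (SE, adjusted p = 0.0945), which was 0.90 (adjusted p = 0.124) without non-pregnant replicate 4 and 2.16 (adjusted p = 0.0226, called) without non-pregnant replicate 2. In log2 change, Gnrhr, the GnRH receptor, gave -0.32 ± 0.14 (adjusted p = 0.260), Gata2 -0.44 ± 0.18 (adjusted p = 0.209), Cga, the shared alpha chain, -0.21 ± 0.10 (adjusted p = 0.285) and Nr5a1, the transcription factor SF-1, 0.06 ± 0.13 (adjusted p = 0.857, all ± SE). The log2 of the summed signal of the list was 15.17 to 15.51 in pregnant and 15.54 to 15.64 in non-pregnant females. Most of that sum was Cga. The mean log2 intensity of the 6 markers overlapped, at 10.56 to 10.86 in pregnant and 10.40 to 11.00 in non-pregnant females.

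Red cell genes moved the other way. All 5 measured of 6 listed were called higher in pregnant females, and the log2 of their summed signal was 16.4 to 17.0 in pregnant and 15.0 to 15.4 in non-pregnant females. No marker was called in the lists for lactotrophs, somatotrophs, thyrotrophs, corticotrophs, melanotrophs, posterior lobe, stem cells, endothelium, macrophages or connective tissue. Gh had separate groups, at 14.98 to 15.32 in pregnant and 15.34 to 15.55 in non-pregnant females (log2 change -0.28, adjusted p = 0.107). Its probe was among the brightest of the listed genes, and whether signal there is still proportional to RNA was not tested. The somatotroph markers Ghrhr and Ghsr were higher (0.34 and 0.49). All 3 measured stem cell markers were lower, with Sox9 at -0.41 (adjusted p = 0.0703). Of the thyrotroph markers, Trhr gave 0.54 (adjusted p = 0.0758) and Dio2 -0.47 (adjusted p = 0.152). The part of any of these lists in the Qpct and Cpe values was not tested.

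Lhb was also the named gene whose pattern was most like that of Qpct over the 12 arrays, with a Pearson r of 0.94. Capn6 (0.93), the protein kinase gene Prkd3 (0.93), the sialyltransferase gene St6gal1 (0.93) and the ubiquitin ligase gene Trip12 (0.92) came next. These values describe 12 arrays in 2 separate groups and carry mostly the difference between groups. With the group means removed, r with Qpct was 0.37 for Lhb and 0.42 for Cpe. The groups differed in sign or size: for Lhb r was 0.68 over the 8 pregnant and -0.86 over the 4 non-pregnant arrays, and for Cpe it was 0.08 over the pregnant and 0.94 over the non-pregnant arrays. Neither gene can be said to follow Qpct within groups more closely than the other. By r with group means removed, the 5 genes most like Qpct were others: Fbxo2 (0.92), D030056L22Rik (0.89), Tgfb3 (0.85), Mpv17 (0.85) and Krt78 (0.85). Their log2 changes lay between -0.14 and 0.10. The red cell gene Slc4a1 had an r of 0.81 with Qpct with group means removed, although its group difference was opposite in sign. All these are descriptions over arrays that share a platform and a normalisation.

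**Figure D3:**
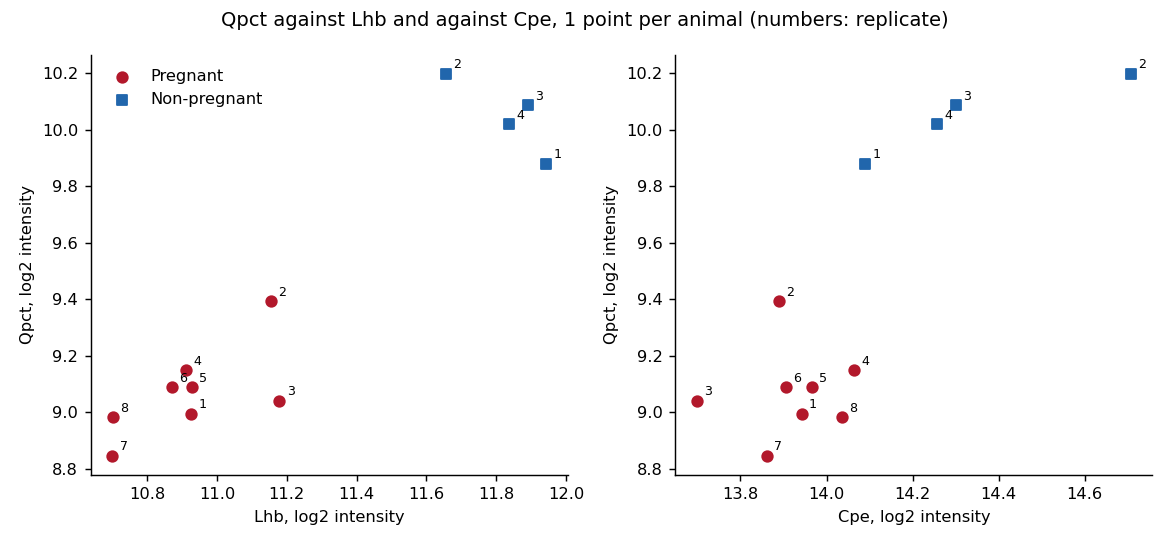
Log2 intensity of Qpct (vertical axes) against that of Lhb (left) and Cpe (right), 1 point per animal, with pregnant females as red circles and non-pregnant females as blue squares. The groups form separate clusters in both panels. Within groups the relation differs: r with Lhb is 0.68 in pregnant and -0.86 in non-pregnant females, and r with Cpe 0.08 in pregnant and 0.94 in non-pregnant females.

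Beyond the 9 genes, 85 genes of the same pathway were listed by function, and 59 were measured. Of these, 3 were called higher, 3 were called lower and 53 were not called, beside 1.51% higher and 1.56% lower over all genes. Their median log2 change was 0.00. With each array left out in turn, 0 to 5 were called higher and 1 to 4 lower. The changes with their intervals are drawn in the plot of change by gene.

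**Figure D4:**
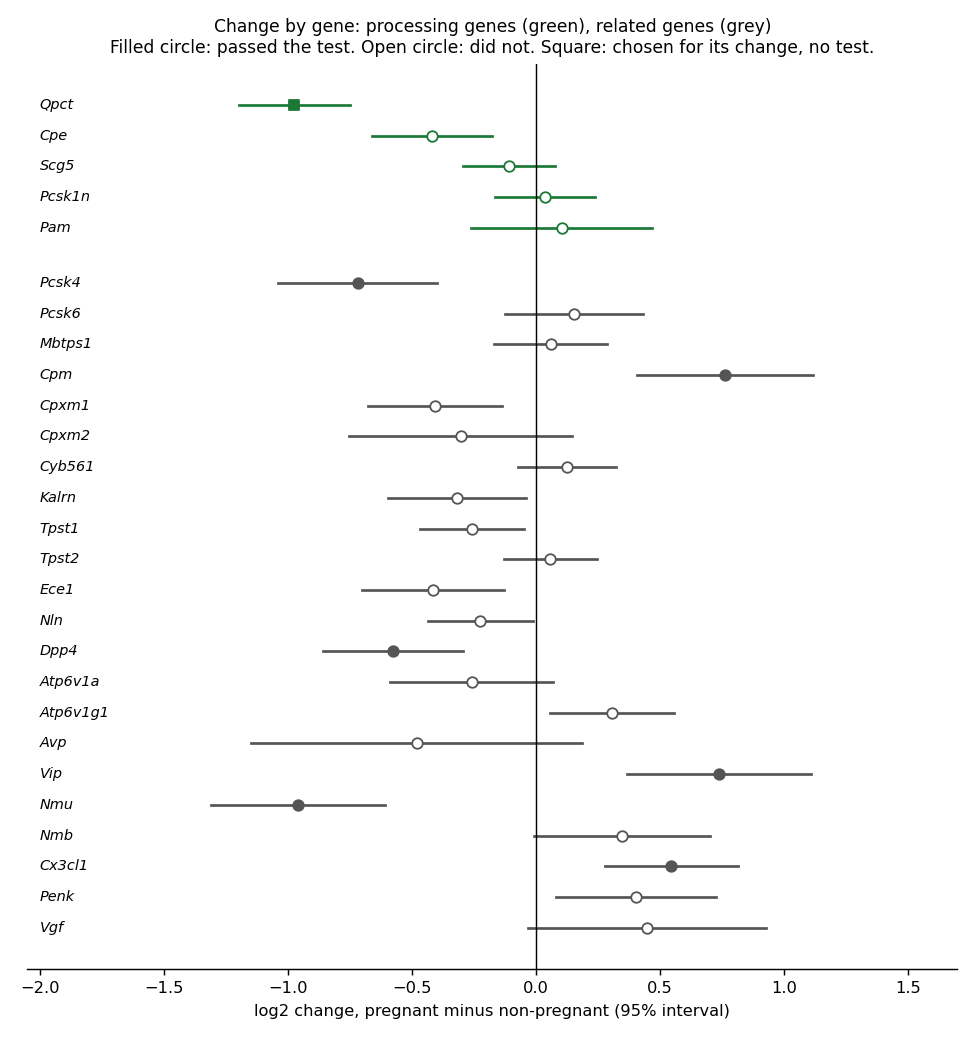
Log2 change (pregnant minus non-pregnant, horizontal axis, lines are 95% intervals) of the 5 measured processing genes (green) and of the related genes named in the text (grey). Filled circles passed the test, open circles did not, and the square marks Qpct, which was chosen for its change. Qpct (-0.97) and Nmu (-0.96) are the lowest and Cpm (0.76) the highest.

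Of the other proprotein convertases, 6 of 7 were measured and 1, Pcsk4, was called. Pcsk4 encodes PC4, known mainly from germ cells. It read 6.23 to 7.11 in pregnant females (median 6.95), against 7.74, 7.78, 7.65 and 7.27 in non-pregnant females. The groups did not overlap, and the log2 change was -0.72 ± 0.15 (SE, adjusted p = 0.0213 in limma). The call was lost without non-pregnant replicate 1 (adjusted p = 0.0834), 2 (0.0654) or 3 (0.0804), and the log2 change was -0.39 with no background correction and -0.40 in the deposited processed table. Pcsk6, which encodes PACE4, and Mbtps1, the site-1 protease, gave 0.15 and 0.06 and were not called. Without non-pregnant replicate 4, Pcsk6 was called at 0.34 (adjusted p = 0.0404).

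Among carboxypeptidases of the CPE family, 4 of 6 were measured and 1 was called, in the direction opposite to Cpe. Cpm, a membrane-bound enzyme that removes basic residues at the cell surface, read 9.01 to 9.93 in pregnant females (median 9.52), against 8.54, 8.89, 8.40 and 9.19 in non-pregnant females. Pregnant replicate 1 lay below non-pregnant replicate 4, and all other pregnant arrays lay above every non-pregnant array. The log2 change was 0.76 ± 0.17 (SE, adjusted p = 0.0255 in limma), and a second Cpm probe gave 0.74 ± 0.20 (adjusted p = 0.0712). Without pregnant replicate 7 the adjusted p was 0.0518. It was 0.104 without non-pregnant replicate 1 and 0.119 without non-pregnant replicate 3. It was 0.0565 without the detection filter and 0.123 with the replicate number as a block. Cpxm1 and Cpxm2, family members thought to lack enzyme activity, gave -0.41 ± 0.13 (adjusted p = 0.105) and -0.30 and were not called.

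No gene was called among the copper, ascorbate and PAM partner genes (6 of 8 measured, median log2 change -0.09), which supply PAM with its cofactors or bind its tail. Kalrn, a PAM-binding exchange factor, gave -0.32 ± 0.13 (adjusted p = 0.227), and Cyb561, which brings electrons into granules, 0.13 ± 0.09 (adjusted p = 0.522). The sulphation and acylation enzymes had 2 of 3 measured, Tpst1 at -0.26 ± 0.10 (adjusted p = 0.191) and Tpst2 at 0.06, neither called, although leaving out non-pregnant replicate 4 made Tpst1 a call (-0.36, adjusted p = 0.0306). All 17 measured subunits and partners of the vesicle proton pump, which acidifies granules for the convertases, were uncalled, within -0.26 and 0.31 and with a median of 0.05. Their extremes were Atp6v1a at -0.26 ± 0.15 (adjusted p = 0.422) and Atp6v1g1 at 0.31 ± 0.12 (adjusted p = 0.190).

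Of other proteases that make or break down peptides, 12 of 17 were measured and 1 was called. Dpp4, a cell surface enzyme that trims dipeptides from the amino terminus, read 5.88 to 6.71 in pregnant females (median 6.10), against 6.70, 6.69, 6.95 and 6.62 in non-pregnant females. Pregnant replicate 3 lay among the non-pregnant arrays, and the other pregnant arrays lay below them. The Dpp4 probe was dim and did not pass a filter of detection p under 0.01 on all 12 arrays. The log2 change was -0.58 ± 0.13 (SE, adjusted p = 0.0330 in limma), a call lost without any of pregnant replicates 2, 4, 6, 7 and 8 or non-pregnant replicates 1, 2 and 3 (adjusted p 0.0506 to 0.141). It was also lost with no background correction (-0.24, adjusted p = 0.0661) and in the deposited processed table (-0.24, adjusted p = 0.0647). The same held without the detection filter (adjusted p = 0.0552) and with the replicate number as a block (adjusted p = 0.160). The endothelin-converting enzyme gene Ece1 gave -0.41 ± 0.13 (adjusted p = 0.118) and the neurolysin gene Nln -0.22 ± 0.10 (adjusted p = 0.267).

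The precursors on which these enzymes act were measured in part. Of 15 precursors of amidated peptides 8 were measured, with 1 called lower and 1 higher. Nmu, the neuromedin U precursor, read 8.05 to 8.73 in pregnant females (median 8.26), against 9.70, 9.03, 9.13 and 9.40 in non-pregnant females. The groups did not overlap, and the log2 change was -0.96 ± 0.17 (SE, adjusted p = 0.00675 in limma). The call was kept with each array left out in turn, and lost with the replicate number as a block (adjusted p = 0.116).

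Vip, the precursor of vasoactive intestinal peptide, read 7.89 to 8.98 in pregnant females (median 8.60), against 7.60, 7.86, 7.60 and 8.24 in non-pregnant females. Only pregnant replicate 2 lay below the highest non-pregnant array. The log2 change was 0.74 ± 0.17 (SE, adjusted p = 0.0387 in limma). The call was lost without any of pregnant replicates 1 and 3 to 8 or non-pregnant replicates 1, 2 and 3 (adjusted p 0.0501 to 0.147). It was also lost under median centring (0.0780), without the detection filter (0.0760) and with the replicate number as a block (0.252). Avp (-0.48 ± 0.31, adjusted p = 0.468) and Nmb (0.35 ± 0.17, adjusted p = 0.306) were not called.

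For glutaminyl cyclase itself, 1 of 8 listed substrates was measured, the chemokine Cx3cl1, which is known for its pyroglutamate end in human. Cx3cl1 read 11.24 to 11.89 in pregnant females (median 11.67), against 10.87, 11.28, 11.33 and 11.04 in non-pregnant females. Only pregnant replicate 1 fell within the non-pregnant range. The log2 change was 0.55 ± 0.13 (SE, adjusted p = 0.0337 in limma). The call was lost without any of pregnant replicates 3 to 8 or non-pregnant replicates 1 and 3 (adjusted p 0.0511 to 0.133). It was also lost without the detection filter (0.0524) and with the replicate number as a block (0.193). Trh, the precursor of a classical pyroglutamate hormone, did not pass the detection filter, and Gnrh1 had no named probe and was not analysed here. Penk (0.40 ± 0.15, adjusted p = 0.182) and Vgf (0.45 ± 0.23, adjusted p = 0.328), other peptide precursors, were not called.

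**Figure D5:**
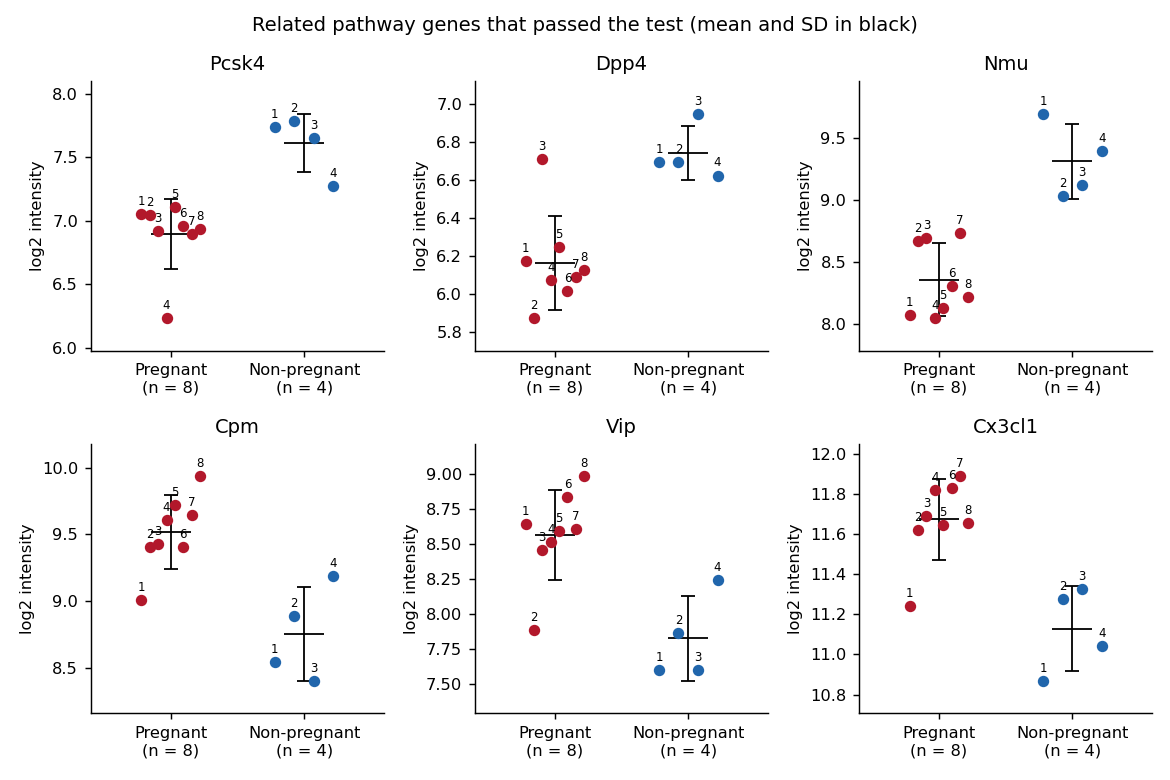
Log2 intensity (vertical axis) on each array of the 6 related genes that passed the test, with pregnant females in red, non-pregnant females in blue, replicate numbers beside the points and the mean and SD in black. Pcsk4 and Nmu have separate groups, and in Dpp4, Cpm, Vip and Cx3cl1 a single pregnant array crosses into the non-pregnant range.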

How the data were processed

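Whole pituitary RNA of 8 pregnant and 4 non-pregnant females was compared, 1 array per animal. The authors deposited raw signal intensity values on a linear scale and, beside each, a detection p-value against negative control beads. They also deposited a processed intensity table, used only as an alternative. The paper gives quantile normalisation and variance stabilisation with lumi, whereas the deposited values were on a linear scale. Those values were put on a log2 scale here. Their results lay close to those with no background correction (log2 change of Qpct -0.84 and -0.83). The version of lumi and the genome build were not found in the sources, and coordinates were therefore left out.

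Raw intensities were background-corrected (normexp, negative controls inferred from detection p, offset 16), quantile-normalised and put on a log2 scale with limma 3.58.1 (R 4.3.3). Probes with a detection p under 0.05 on at least 4 of 12 arrays were tested with lmFit and eBayes (two-sided), and p-values were adjusted by Benjamini-Hochberg over all 18626 probes. A call needed a change of 1.25-fold or more with an adjusted p under 0.05, and a gene was called when any of its probes was. Adjusted p-values are from this fit. Symbols of the platform annotation (34885 probes with 1 gene, 18 with several, 10378 with none) were brought up to date with RefSeq (GRCm38.p6) gene IDs, which held 34807 of the 34885.

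The members, the gene lists and the tests were chosen with earlier results of these data known. Each gene is given by its brightest probe. Named genes are the members, every called gene of the pathway lists with up to 2 uncalled ones of smallest p per list, and the 5 named probes most like Qpct by each measure of likeness. Labels do not give the litter or slide of an animal, so neither was a covariate. The p-values set each group difference against the spread between these animals. They treat the animals as independent, although littermates were among them. Alternatives were other background corrections (none, offset 50), the deposited processed table, median centring, no filter, a filter of p under 0.01 on all 12 arrays, eBayes with trend and robust, array weights, a replicate block and leaving out each array. The procedure was tested on simulated data. The number of arrays limits the precision.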

Additional observations from a re-analysis of the deposited data

Results flagged for a closer look

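In 3 of the 24 groups of values checked, a single array lay far from the rest of its group, where chance flags about 5% of groups. Pcsk4 was lowest in pregnant replicate 4, at 6.233 log2 units, with the next pregnant array at 6.898 and the highest at 7.105. Dpp4 was highest in pregnant replicate 3, at 6.711, with the next at 6.247 and the lowest pregnant array at 5.876. Cx3cl1 was lowest in pregnant replicate 1, at 11.24, with the next at 11.62 and the highest pregnant array at 11.89. No array of either group stood out in this way for Qpct, Cpe, Scg5, Pcsk1n or Pam.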

How the results depend on the processing

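Of 705 values of 34 single-gene results under the alternatives, 639 kept their direction and side of the threshold, 44 lost significance, 12 gained it and 10 changed sign. Alternatives for gonadotroph markers were chosen after seeing the data; the causes were not tested. Cpe was called lower under no background correction, offset 50, the deposited table, the stricter filter, trend with robust and array weights. It was not called as reported or without any single array. In those settings 212, 241, 212, 167, 252 and 646 genes of the whole series were called lower, in that order, against 169 as reported. Qpct, chosen for its change, met the limits of a call in every setting, and nothing is read from that. Pathway genes called lower were 1 under the stricter filter, 5 under array weights and 1 under the replicate block, and 1 to 4 without each array, against 3 as reported. Pathway genes called higher were 1 (Tac1) without the detection filter, 6 under array weights and 0 under the replicate block, and 0 to 5 without each array, against 3 as reported. All genes called lower were 646 under array weights and 33 under the block (169 as reported), and called higher 544 and 60 (163 as reported). Without each array they ran from 53 to 475 lower and from 59 to 400 higher, with the lowest counts without non-pregnant replicate 3 and the highest without non-pregnant replicate 4. Changes of sign were Pcsk1n under array weights (-0.011) and without non-pregnant replicate 1 (-0.0091, leave-one-out range to 0.082), Pam under the replicate block (-0.074), the dimmer Pam probe without pregnant replicate 4 (-0.015) or 8 (-0.024) or non-pregnant replicate 1 (-0.0090) or 2 (-0.10, range to 0.20), Mbtps1 without non-pregnant replicate 1 (-0.021, range to 0.15), Nr5a1 without non-pregnant replicate 2 (-0.054, range to 0.20) and Tpst2 without non-pregnant replicate 3 (-0.0097, range to 0.086). For the 4 shared numbers, the deviations of arrays with the same number had an r of 0.163, 0.0603, 0.0145 and 0.203. Of these arrays, 3 of 8 correlated best with their own number. So few pairs cannot decide whether a shared number marks a pairing, and the labels do not give one. The planned comparisons between members gave no value. No scaling moved the median of all genes by more than 0.1 log2 units.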
